A study of Mus musculus with 20 samples.

Results

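The genes described here are 10 mouse genes that act on the splicing of pre-mRNA: the CDC-like kinases Clk1, Clk2, Clk3 and Clk4, the SR protein kinase Srpk1, the SR proteins Srsf2, Srsf3, Srsf5 and Srsf7, and the cyclophilin Ppig. They were taken as every non-control probe of the array whose gene name is one of these or, for the SR proteins, its older Sfrs name, which gave 25 of 41174 probes. They are 10 of the 15150 genes with a probe kept for the fits. The genes were chosen because of how they differed between days on these same arrays, so their own values are a description. Counts of their probes past the threshold of a fit over all probes stand beside the share of all probes and support nothing. Blood had been drawn from 4 female C57Bl/6 mice, numbered 305, 310, 315 and 320, on day 0, before Hepa1-6 cells were placed under the skin, and on days 10, 15, 20 and 25 after it. Hepa1-6 is a cultured mouse hepatoma line. Every mouse was bled on all 5 days, so day 0 is the same animals without tumour cells. Untreated mice bled on days 10 to 25 were not analysed here, and no age is given in the sources used here. Each of the 20 RNA samples, kept in RNAlater, was labelled with Cy5 and hybridised beside a common reference of untreated female C57Bl/6 blood labelled with Cy3. A log2(Cy5/Cy3) ratio above 0 therefore means more signal in the mouse sample than in the reference.

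SR proteins bind exonic sequences of a pre-mRNA through RNA recognition motifs and recruit the splicing machinery through a tail rich in arginine and serine dipeptides. Phosphorylation of that tail sets where they are and what they bind: SRPK1 phosphorylates it mainly in the cytoplasm, which allows import into the nucleus, and the CLK kinases phosphorylate it further in the nucleus and release SR proteins from nuclear speckles. Several SR protein genes and Clk1 are also regulated by their own splicing, through exons or introns that keep a transcript from being translated, so the total signal of a probe need not follow the level of the protein.

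Array brightness differed between the days. The median net Cy5 intensity of an array ranged over 17.0 to 21.1 on day 10 and 21.9 to 29.7 on day 25, against 50.1 to 69.6 on day 0. Days 15 and 20 were dimmer still, at 13.0 to 16.8. The median net Cy3 intensity, from the reference, ranged over 10.6 to 14.4 on day 10 and 24.1 to 26.4 on day 25, against 79.6 to 110.2 on day 0. Since each slide carried the 4 mice of a single day, day and slide cannot be told apart. Days 15, 20 and 25 were scanned on the same day and day 0 and day 10 each on another day. Some marker lists moved with the days too, and others had few calls or none. The mean log2 ratio of 12 of 15 erythroid markers ranged over 0.72 to 0.82 for day 10 and -0.57 to -0.11 for day 25, against -0.20 to 0.75 for day 0. That of 13 of 15 neutrophil markers ranged over -0.12 to 0.24 for day 10 and 0.13 to 0.41 for day 25, against 0.42 to 0.84 for day 0. That of 11 of 12 T cell markers ranged over -0.21 to -0.0048 for day 10 and 0.01 to 0.25 for day 25, against -0.02 to 0.31 for day 0. On day 15 it lay at -0.27 to -0.09 and on day 20 at 0.07 to 0.43. Of the 11, 2 and 5 were called lower than day 0 on days 10 and 15, beside 7.12% and 3.85% of all probes. For day 25 against day 10, 6 were called higher, beside 17.7%, with a median of 0.28. Calls among the 13 neutrophil markers were 7 lower for day 10 against day 0, beside 7.12%, and 2 higher for day 25 against day 10, beside 17.7%. Their differences between day 10 and day 0 ranged over -2.03 to 1.17, so not all were lower. Among the 12 erythroid markers, 2 were called higher for day 10 against day 0, beside 4.09%, and 12 lower for day 25 against day 10, beside 13.8%. Elane and Mpo of the neutrophil list and Alas2 of the erythroid list were on the array but not kept. Of 8 liver and hepatoma markers 4 were kept, and Apoa1, Ttr and Apob were not. For day 10 against day 0, 1 of these 4 was called higher. In that comparison 0 of 7 monocyte, 8 B cell, 7 NK cell and 8 platelet markers were called. For day 25 against day 10, 1 monocyte and 3 B cell markers were called higher and 2 platelet markers lower, beside 17.7% and 13.8%. Of the NK cell and the liver and hepatoma markers, 0 were called there. The part of cell composition and of brightness in the values below was not tested. In whole blood, fewer cells of a type and less RNA per cell cannot be told apart.

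Of the 25 probes, 23 were well above background in Cy5 on at least 4 arrays and were kept. The probes left out were 1 of 3 for Ppig (A_51_P471798, above background on 0 of 20 arrays) and 1 of 2 for Srsf3 (A_52_P545451, on 2 of 20). Clk4 and Srsf2 had 4 probes each, Srsf7 had 3, Srsf5 had 1 and Clk1, Clk2, Clk3 and Srpk1 had 2 each. Where a gene is given by 1 value, it is that of its brightest probe.

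Clk1, Clk4 and Srsf7 had their lowest mean ratios on day 10, intermediate ones on days 15 and 20, and on day 25 means above those of day 0 by 0.13 to 0.25, with values that overlapped. With array medians in place of loess, Clk1 and Srsf7 lay below day 0 on day 25, at -0.02 and -0.04. The place of day 10 as the lowest depends on the processing: with scaling between arrays all 3 were lower on day 15, by differences from day 0 of -1.71 for Clk1, -0.86 for Clk4 and -1.40 for Srsf7, than on day 10, at -0.47, -0.71 and -0.63. On day 20, Clk1 then lay above day 0 by 0.08. In the loess ratios, all 3 lay below day 0 in 4 of 4 mice on day 10 and above day 10 in 4 of 4 mice on day 25, with groups that did not overlap in either comparison. The other 7 genes differed less between days or rested on few arrays. Their values follow gene by gene, with the kinases first.

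**Figure D1:**
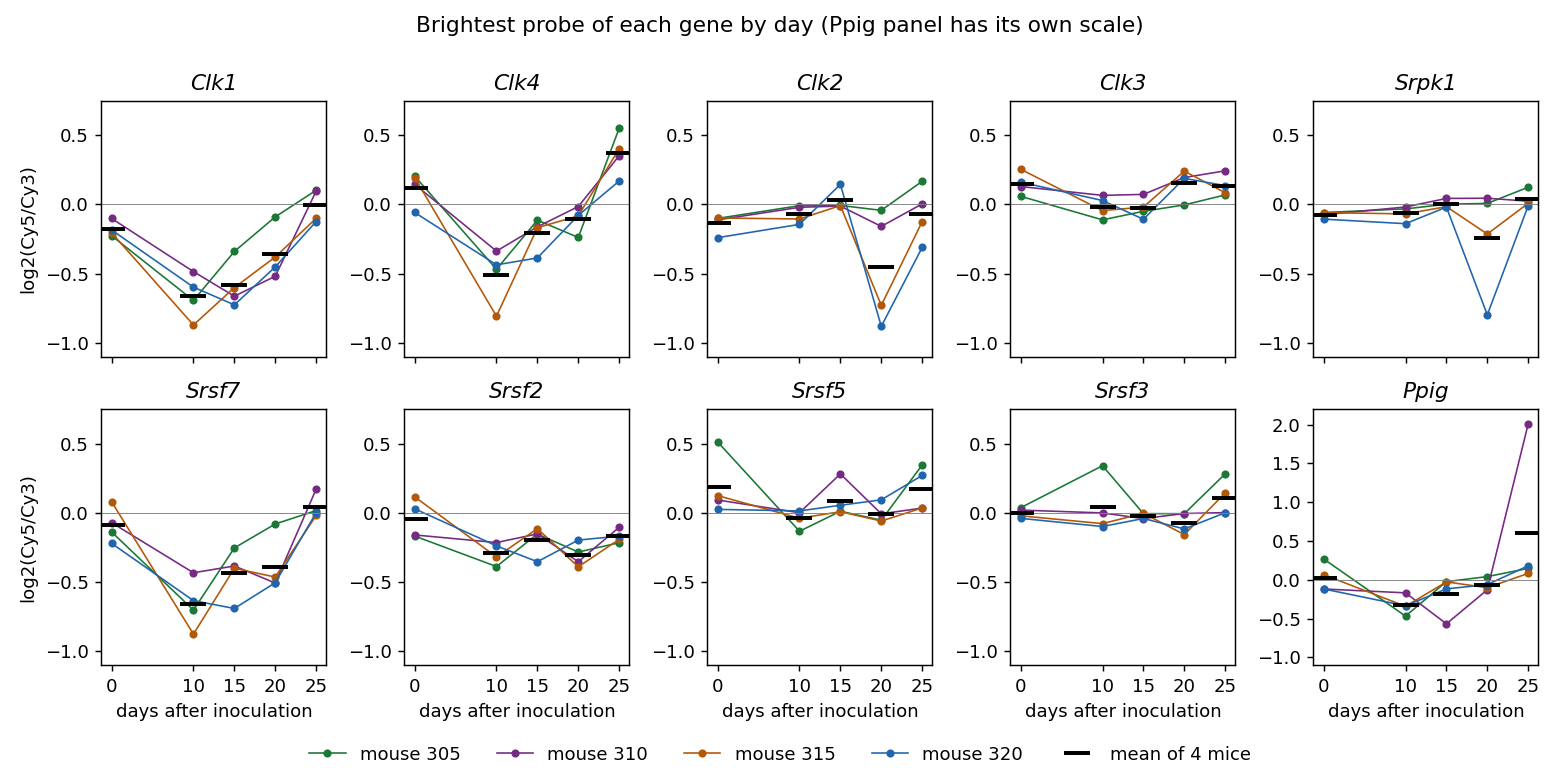
Log2(Cy5/Cy3) of the brightest probe of each gene (vertical axis) by day after inoculation (horizontal axis), with 1 line a mouse and a black bar for the mean of 4 mice. Clk1, Clk4 and Srsf7 are lowest on day 10 in their mean, and the Ppig panel, which has its own scale, holds a value of 2.01 in mouse 310 on day 25.

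Clk1 encodes a nuclear kinase that phosphorylates both serine/threonine and tyrosine. In mice 305, 310, 315 and 320, in that order, its brightest probe (A_51_P193573) gave log2 ratios of -0.69, -0.49, -0.87 and -0.60 on day 10, against -0.23, -0.10, -0.21 and -0.18 on day 0. The ratios were -0.34, -0.66, -0.60 and -0.73 on day 15, -0.09, -0.52, -0.38 and -0.45 on day 20 and 0.10, 0.10, -0.10 and -0.12 on day 25. The 4 mice were thus low together on day 10, mouse 305 had the highest value on days 15 and 20, and on day 25 the 4 values were spread around the reference level. The difference on the log2 scale was -0.48 (SE 0.099) for day 10 against day 0, a ratio of 0.716, and 0.66 (SE 0.099) for day 25 against day 10. For day 15 against day 0 it was -0.40, with 4 of 4 mice lower and no overlap, and for day 20 it was -0.18 with overlap.

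The other Clk1 probe (A_52_P679152) also had its lowest mean on day 10, but on day 25 it did not lie above day 0, with a difference of -0.02. It gave -0.47, -0.12, -0.48 and -0.35 on day 10, against 0.06, 0.02, 0.11 and 0.15 on day 0, a difference of -0.44 (SE 0.082). Over the 20 arrays the pair of probes had a Pearson r of 0.90, which describes arrays that share slides and reference. The raw intensities of the brightest probe are given beside the ratios, for arrays whose median intensities were lower on day 10 in both channels. They are not scaled between arrays. Its net Cy5 intensity was between 1507 and 2569 on day 10, against 5271 to 7646 on day 0, while its net Cy3 intensity, from the reference, was between 2256 and 2419 on day 10, against 2202 to 2394 on day 0. Loess normalization sets each ratio against those of probes of like brightness on the same array, so the difference of -0.48 is what remains beyond the shift of those probes. With array medians in place of loess, which leave that shift in, the differences for day 10 against day 0 were -1.98 for Clk1, -2.04 for Clk4 and -2.06 for Srsf7, where the median of all probes was -0.40. With the ratios scaled to a common spread across arrays, these 3 differences were below 0 but not past the threshold on the adjusted p, while those of Clk1 and Srsf7 for day 15 against day 0 were.

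Clk4 encodes the closest relative of Clk1 in the family. Its brightest probe (A_52_P445387) gave -0.47, -0.34, -0.81 and -0.44 on day 10, against 0.20, 0.14, 0.19 and -0.06 on day 0. On days 15, 20 and 25 the ratios were -0.11, -0.16, -0.17 and -0.39, then -0.24, -0.02, -0.08 and -0.08, then 0.55, 0.35, 0.40 and 0.17. Every mouse was lower on day 10 than on day 0 and higher on day 25 than on day 20. The difference was -0.63 (SE 0.097) for day 10 against day 0, a ratio of 0.645, and 0.88 (SE 0.097) for day 25 against day 10, a ratio of 1.84. Its net Cy5 intensity ranged over 952.4 to 1259 on day 10, against 2100 to 4132 on day 0, and its net Cy3 intensity over 1138 to 1474 on day 10, against 988.5 to 1086 on day 0. Of all probes kept, 0.344% had a lower difference between day 10 and day 0.

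The 4 Clk4 probes did not all follow this course. The next in brightness (A_52_P128262) differed by -0.33 (SE 0.068) and the third (A_51_P339547) by -0.16 (SE 0.041) between day 10 and day 0, and among these 3 probes r was between 0.77 and 0.87. The fourth (A_52_P368396), designed on another transcript record, differed by 0.41 (SE 0.24), which rests on 1 array: it gave 1.68 in mouse 320 on day 10, against -0.02, 0.00 and 0.01 in the other mice. That probe was well above background on 5 of 20 arrays and had r values of -0.24 to -0.51 with the others.

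The RefSeq window of the Clk4 promoter (GRCm38.p6, chr11:51262864-51263163, + strand, 250 bases before to 50 after the start of the gene) is shown because, among the brightest probes of the 10 genes, that of Clk4 had the most negative difference between day 10 and day 0. Capitals mark TGACG, the half-site of the cAMP response element (CRE), on either strand, within which the full palindrome TGACGTCA lies 65 bases before the start.
Clk4: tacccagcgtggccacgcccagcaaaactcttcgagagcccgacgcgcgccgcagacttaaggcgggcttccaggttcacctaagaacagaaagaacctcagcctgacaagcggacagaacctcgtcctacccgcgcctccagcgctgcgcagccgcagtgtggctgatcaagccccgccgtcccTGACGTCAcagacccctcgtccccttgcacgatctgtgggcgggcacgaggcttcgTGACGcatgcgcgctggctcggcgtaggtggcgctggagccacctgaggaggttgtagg
The full element was in 1.79% of the 32851 windows of the table and in 1 of the 9 windows of these genes, that of Clk4. The half-site TGACG, which the full element contains, was in 20.8% of all windows and in 7 of the 9. The motifs were chosen after the windows had been read, and a match of letters is a description, not a binding site. The table matched 9 of the 10 genes.

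Clk2 and Clk3 encode the remaining members of the kinase family. The brightest Clk3 probe (A_51_P169176) gave -0.11, 0.07, -0.04 and 0.03 on day 10, against 0.06, 0.13, 0.25 and 0.16 on day 0, a difference of -0.17 (SE 0.061). All 4 mice were lower, but the groups overlapped. The difference was -0.18 on day 15 and close to 0 on days 20 and 25. Its other probe (A_52_P559498) differed by 0.06 (SE 0.095), in the opposite direction, and r between the pair was -0.03. For day 25 against day 10 the brightest probe differed by 0.15 and the other by -0.24, both without overlap.

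For Clk2, the brightest probe (A_52_P41894) differed by 0.07 (SE 0.14) for day 10 against day 0 and by 0.17 for day 15 against day 0, on which it was higher in 4 of 4 mice without overlap. Day 20 against day 15 gave -0.48 for this probe and -0.15 for the other, lower in 4 of 4 mice without overlap for both. The brightest probe's ratios on day 20 were -0.04, -0.16, -0.73 and -0.88. Mice 315 and 320 set the low mean of that day, on which the probe's net Cy5 intensity in mouse 315 was -13.2, below local background. The other Clk2 probe differed by -0.01 (SE 0.054) for day 10 against day 0 and by -0.13 (SE 0.054) for day 20 against day 0.

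Srpk1 encodes the cytoplasmic SR protein kinase. Its brightest probe (A_52_P493810) gave -0.03, -0.02, -0.07 and -0.14 on day 10, against -0.06, -0.07, -0.06 and -0.11 on day 0. These are alike to within their spread, with a difference of 0.01 (SE 0.12). The ratios on day 20 were 0.01, 0.04, -0.21 and -0.80, so that the mean of that day, -0.24 ± 0.39 (SD, n = 4), rests on mouse 320. Its dimmer probe (A_51_P283806) was well above background on 10 of 20 arrays and on 0 arrays of days 15 and 20.

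Among the SR proteins, Srsf7, which also has a zinc knuckle and shuttles between nucleus and cytoplasm, differed most between days. Its brightest probe (A_52_P649683) gave -0.70, -0.43, -0.88 and -0.63 on day 10, against -0.14, -0.07, 0.08 and -0.22 on day 0. On days 15, 20 and 25 the ratios were -0.25, -0.38, -0.40 and -0.69, then -0.08, -0.51, -0.46 and -0.50, then 0.02, 0.17, -0.02 and 0.00. Mice 310, 315 and 320 were still low on day 20, mouse 305 was not, and by day 25 the 4 mice lay between -0.02 and 0.17. The difference was -0.57 (SE 0.11) for day 10 against day 0, a ratio of 0.672, and 0.70 (SE 0.11) for day 25 against day 10, a ratio of 1.63. Its net Cy5 intensity ranged over 804.9 to 1314 on day 10, against 3429 to 6438 on day 0, and its net Cy3 intensity over 1320 to 1369 on day 10, against 1682 to 1748 on day 0. Both channels were dimmer, the sample channel more so. The next Srsf7 probe (A_52_P649685) differed by -0.40 (SE 0.084) and 0.61 (SE 0.084) in these comparisons and had r of 0.91 with the brightest. The dimmest (A_51_P466673) differed by -0.25 (SE 0.10) and 0.23 (SE 0.10), with overlap in both.

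The promoter window of Srsf7 (GRCm38.p6, chr17:80207256-80207555, - strand) is shown for comparison with that of Clk4, whose ratios it followed with r of 0.87. Capitals mark TATANA, the core promoter pattern searched for, which begins 29 bases before the start. The window holds no TGACG on either strand.
Srsf7: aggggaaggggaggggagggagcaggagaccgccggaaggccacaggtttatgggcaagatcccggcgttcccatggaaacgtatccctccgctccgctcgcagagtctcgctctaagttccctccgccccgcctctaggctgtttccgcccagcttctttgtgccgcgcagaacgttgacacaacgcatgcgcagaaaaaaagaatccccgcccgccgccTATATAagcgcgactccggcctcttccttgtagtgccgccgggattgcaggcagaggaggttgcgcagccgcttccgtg
TATANA, searched on both strands, was in 24.7% of all windows and in 3 of the 9, those of Srsf2, Srsf3 and Srsf7. The Clk4 window does not hold it.

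Srsf2, also known as SC35, encodes an SR protein that stays in the nucleus and marks speckles. Its brightest probe (A_51_P262432) gave -0.39, -0.21, -0.32 and -0.24 on day 10, against -0.17, -0.16, 0.12 and 0.03 on day 0, a difference of -0.24 (SE 0.068) without overlap. On day 20 it gave -0.28, -0.35, -0.39 and -0.20, a difference of -0.26 from day 0, again without overlap. Unlike Clk1, Clk4 and Srsf7, its mean stayed below that of day 0 on day 25, by 0.12 (SE 0.068). In the Cy5 channel alone the difference between day 10 and day 0 was 0.08, in the opposite direction, while the Cy3 signal of the reference at this probe was higher by 0.33. The other 3 Srsf2 probes differed by -0.22, -0.10 and -0.08 for day 10 against day 0, and r among the 4 probes was between -0.11 and 0.63.

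Srsf5 encodes an SR protein known from rat liver as an early response gene of regeneration. Its only probe (A_52_P50090) gave -0.13, 0.00, -0.04 and 0.01 on day 10, against 0.51, 0.09, 0.12 and 0.03 on day 0. The difference was -0.23 (SE 0.095), with 4 of 4 mice lower and no overlap. Mouse 305, at 0.51, stood above the other 3 mice of day 0, and without it on day 0 the difference was -0.12. On day 25 the mean was 0.17 ± 0.16 (SD, n = 4), against 0.19 ± 0.22 on day 0.

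Srsf3 encodes the smallest SR protein. Its kept probe (A_51_P417016) was well above background on 11 of 20 arrays and on 0 arrays of days 15 and 20, where its values lie near background. On day 10 it gave 0.34, 0.00, -0.08 and -0.10, against 0.04, 0.02, -0.02 and -0.04 on day 0. Mouse 305 was higher and the other 3 lower, and the difference of 0.04 (SE 0.080) is within this spread. Taken in Cy5 after normalization of both channels, the mean of day 10, on which 3 of 4 arrays were well above background, was 1.09-fold that of day 15. The mean of day 25 was 1.05-fold that of day 15. On day 15 the probe's own signal was not below the lowest signal well above background on those arrays. The values are therefore differences of means and not lower limits, and are open to dye bias. On day 10 the net Cy5 intensity was 172.2 in mouse 305, against 25.29, 21.83 and 25.76 in the other mice.

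Ppig encodes a nuclear cyclophilin, a peptidyl-prolyl isomerase with an SR-like tail that binds CLK kinases. Its brightest probe (A_51_P265008) gave -0.47, -0.17, -0.34 and -0.33 on day 10, against 0.27, -0.12, 0.07 and -0.12 on day 0, a difference of -0.35 (SE 0.29) without overlap. On day 25 it gave 0.15, 2.01, 0.08 and 0.18. The value of mouse 310 stands apart, and at that spot the local background exceeded the signal in both channels, with net intensities of -5743 in Cy5 and -6753 in Cy3. Day 25 against day 10 gave 0.93 (SE 0.29) with that array and 0.46 without it. The spread of that array also enters the SE of every comparison of this probe. The other Ppig probe (A_52_P685857) differed by -0.13 (SE 0.061) and 0.15 (SE 0.061) in these comparisons.

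**Figure D2:**
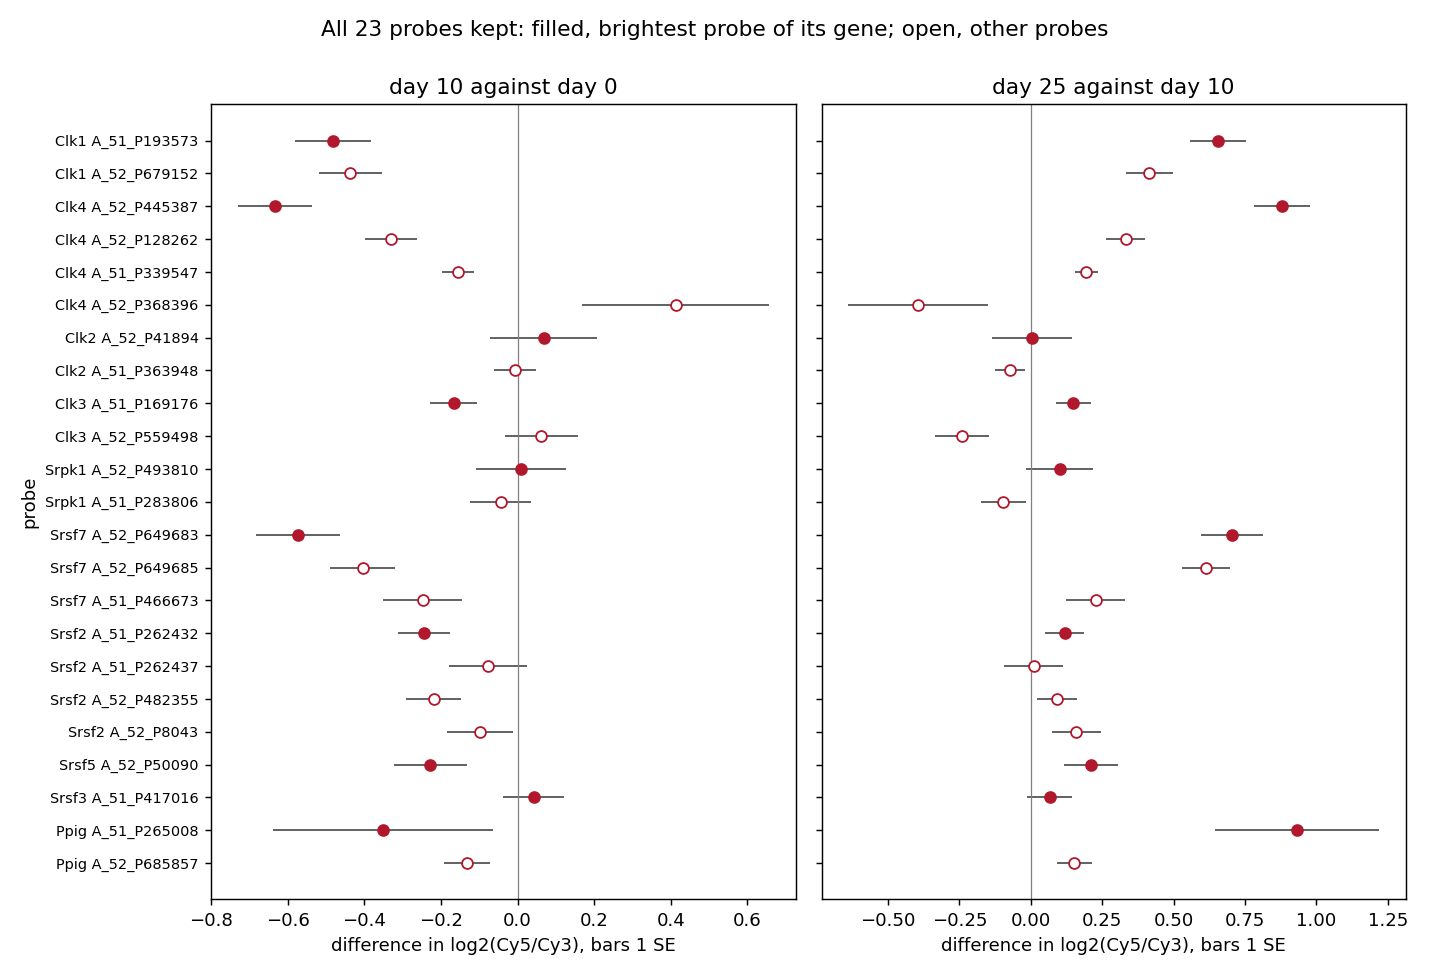
Difference in log2(Cy5/Cy3) of each of the 23 probes kept (rows, grouped by gene) for day 10 against day 0 (left) and day 25 against day 10 (right), with bars of 1 SE from the fit over 20 arrays. Filled points are the brightest probe of a gene, and the Clk1, Clk4 and Srsf7 points lie between -0.63 and -0.48 on the left and between 0.66 and 0.88 on the right.

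Over the 23 probes, 18 had a lower mean on day 10 than on day 0, with a median difference of -0.17 beside -0.02 for all probes kept. In a limma fit over all 20 arrays with Benjamini-Hochberg adjustment over all probes kept, 8 of the 23 were past the threshold of 0.05, all lower, in a comparison in which 11.2% of all probes were called, 7.12% lower and 4.09% higher. The 8 probes belong to Clk1, Clk4, Srsf7 and Srsf2. Days 10 and 0 did not overlap for 12 of the 23 probes, all lower, where 12% of all probes were lower and 7.68% higher without overlap. Since this contrast chose the genes, nothing is read from these counts.

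On day 15, 1 of the 23 probes, that of Clk1, was called lower than on day 0, in a comparison in which 5.88% of all probes were called. With the mouse as a block, since the same animals were sampled, 3 of the 10 genes were called lower, Clk1, Clk3 and Clk4, beside 4.11% of all probes called lower in that fit. Without overlap 6 probes were lower and 2 higher, where 14% and 7.68% of all probes were. Leaving out mouse 310 on day 0, or mouse 310, 315 or 320 on day 15, ended the call of Clk1. On day 20, 1 probe, that of Srsf2, was called lower, beside 2.94% of all probes, and it was past the threshold in 4 of the 20 fits that left out 1 array. On day 25, 0 of the 23 were called against day 0, beside 0.148% of all probes. By the brightest probe, 1 of the 10 genes had an unadjusted p under 0.05 there, a limit at which the share of all probes was not taken. Over any of the 5 days, in limma's F test, 9 of the 23 probes passed, of Clk1, Clk3, Clk4, Srsf2 and Srsf7, where 27% of all probes did.

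Day 25 against day 10 gave 8 of the 23 probes called, all higher, in a comparison in which 31.5% of all probes were called, 17.7% higher and 13.8% lower. The probes are the brightest of Ppig and those of Clk1, Clk4 and Srsf7, except the fourth Clk4 probe, at -0.395, and the dimmest Srsf7 probe, at 0.23. Days 25 and 10 did not overlap for 13 probes, 12 higher and 1 lower, beside 13.9% and 11.6% of all probes. This comparison shares the day 10 arrays with the one that chose the genes, so nothing is read from these counts either. The spots of external control RNA on these arrays, which received no weight in the normalization, shifted by 0.54 for day 10 against day 0 and by -1.07 for day 25 against day 10, in the opposite direction to Clk1, Clk4 and Srsf7 in both; its part in their values was not tested.

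Within the days scanned together, Clk1, Clk4 and Srsf7 were higher on day 25 than on day 15, by 0.58, 0.58 and 0.47, and higher than on day 20, by 0.35, 0.47 and 0.43. The values did not overlap, except those of Clk1 on days 25 and 20. Of the 23 probes 5 were called higher for day 25 against day 15, where 19.5% of all probes were called and 11.2% were higher. For day 25 against day 20, 4 were called higher, where 23.2% were called and 11% were higher. Day 20 against day 15 gave 0 of 23, beside 0.0431% of all probes, and day 15 against day 10 gave 0 of 23, beside 0.00957%.

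Called probes were mostly bright ones. Of the 9 probes with a mean brightness A, the mean log2 of both channels, of at least 9, 6 were called for day 10 against day 0, and of the 14 dimmer ones, 2. Over all probes kept the shares called were 37.5% of 4128 bright and 4.75% of 16775 dim probes. For day 25 against day 10 the counts were 5 of 9 and 3 of 14, beside 63.9% and 23.5% of all. The offset of 50 in the background correction draws the ratios of dim probes towards 0, so that the small differences of Clk2, Srpk1 and Srsf3, with A near 8, carry less information than those of Clk1 or Srsf7.

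**Figure D3:**
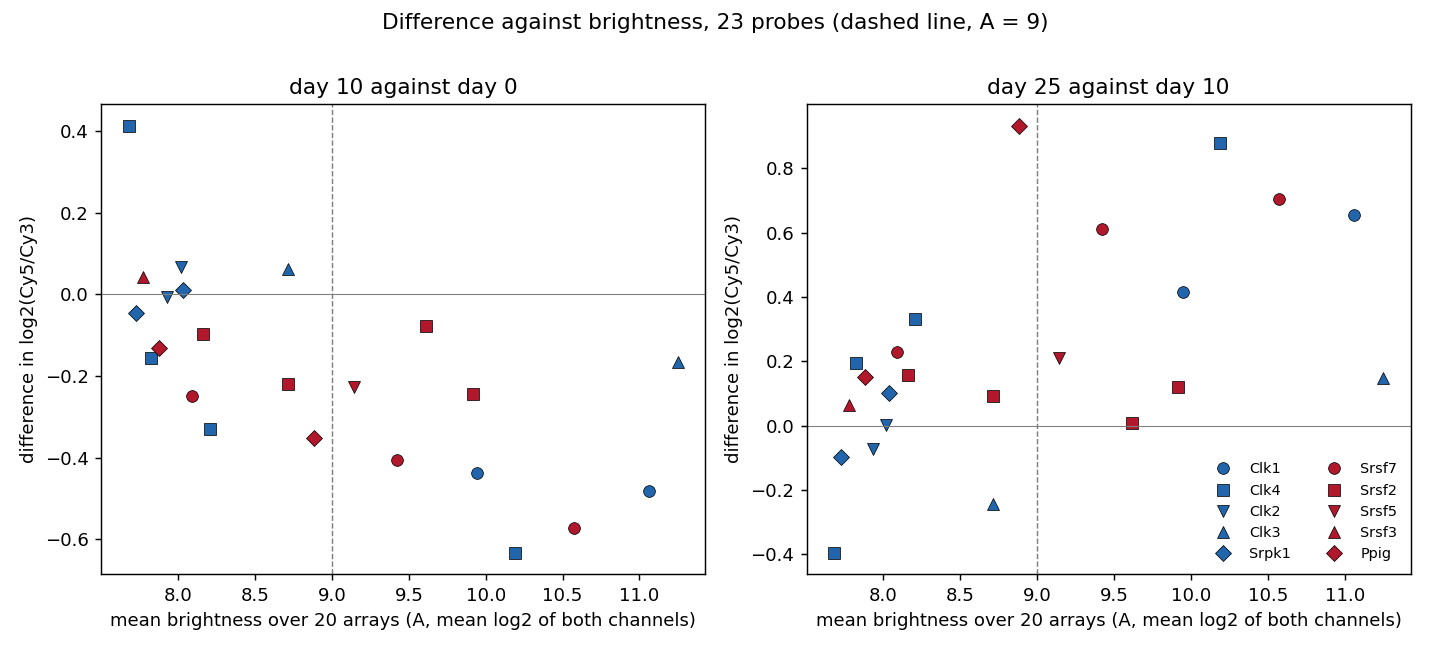
Difference in log2(Cy5/Cy3) of the 23 probes (vertical axis) against mean brightness A over 20 arrays (horizontal axis), for day 10 against day 0 (left) and day 25 against day 10 (right), with kinases in blue and SR proteins and Ppig in red. On the left the 9 probes right of the dashed line at A = 9 lie between -0.63 and -0.08, and the 14 dimmer ones between -0.35 and 0.41.

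The reference channel was not constant at these probes. After normalization of both channels, the Cy3 signal of day 10 minus that of day 0 was -0.24 for Clk1, -0.49 for Srsf7, 0.26 for Clk4 and 0.33 for Srsf2, where its SD over all probes was 0.215. In Cy5 alone the differences were -0.72 for Clk1, -1.06 for Srsf7 and -0.38 for Clk4, so that these 3 were lower on day 10 in the sample channel too, in an order that differs from that of the ratios.

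Among the 10 genes, the ratios of Clk1 and Srsf7 were most alike over the 20 arrays, with r of 0.93, and r was 0.83 for deviations from the day means, which removes what arrays of a day share. Clk4 had r of 0.87 with Srsf7 and 0.86 with Clk1, but 0.41 and 0.38 within days. Clk2 and Srpk1 had r of 0.84, or 0.73 without mouse 320 on day 20. Clk2 and Clk3 were least alike, at -0.53. These values are descriptions, since the arrays share slides, mice and reference.

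Among 15139 other genes, those with the ratios most like Clk1 over the 20 arrays were Mat2a (r = 0.93), which encodes a methionine adenosyltransferase, Lamtor3 (0.93) and St8sia4 (0.91). St8sia4 (0.96) and Mat2a (0.94) also led for Srsf7. For Clk4 they were Itpr1 (0.93), which encodes a calcium channel, Zfp639 (0.93) and Rbm5 (0.92), which encodes a splicing regulator. For Srsf2 they were Pop5 (0.87), Trim8 (0.85) and Amd2 (0.84), for Srsf5 Mrpl44 (0.89), Denr (0.87) and Pank4 (0.85), and for Clk3 Acadvl (0.86), Sar1a (0.84) and Pak1ip1 (0.83). Psmd13 (0.97), the unnamed locus LOC673378 (0.94) and Itpkc (0.92) were closest to Clk2, and Dpagt1 (0.94), Pira2 (0.91) and the probe A_51_P114236 (0.90) to Srsf3. Taf3 (0.94), Hs3st3b1 (0.94) and Zp1 (0.94) led for Srpk1, and without mouse 320 on day 20 these values were 0.55, 0.72 and 0.52. Klri2 (0.93), Zpbp2 (0.89) and LOC382494 (0.75) led for Ppig, and without mouse 310 on day 25 they were 0.46, 0.69 and 0.73.

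Other genes of the splicing pathway were taken from 7 lists of 129 genes, of which 124 were measured. On day 10, 41 of them were lower than on day 0 and 2 higher at an adjusted p under 0.05 in limma, 33.1% and 1.61% of the 124, beside 7.12% and 4.09% of all probes. Their median difference was -0.18, beside -0.02 for all probes. Of the 70 with A of at least 9, 52.9% were lower and 2.86% higher, beside 23.9% and 13.6% of all probes as bright. Without mouse 305 on day 0 the count past the threshold was 15, the lowest over the 20 fits that left out 1 array, and without mouse 310 on day 10 it was 57, the highest. With scaling between arrays, most calls of the genes named below by the F test missed the threshold. These were 29 calls, over the comparisons with day 0 and that of day 25 with day 10.

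HnRNP proteins, which coat pre-mRNA, held 13 lower and 1 higher of 25 measured, beside 7.12% and 4.09% of all probes. Of all probes with A of at least 9, 23.9% were lower and 13.6% higher. The single lists were not split by brightness. Their median was -0.34. Hnrnpa1, which opposes SR proteins at many exons, fell by 0.61 (SE 0.096, limma adjusted p = 0.001347), lower in 4 of 4 mice, and 2 other Hnrnpa1 probes differed by -0.33 and 0.00. Hnrnpu, a nuclear scaffold protein, fell by 0.56 (SE 0.090, limma adjusted p = 0.001417), and its other probe differed by -0.15. Hnrnpm fell by 0.41 (SE 0.071, adjusted p = 0.002135) and Hnrnpd by 0.34 (SE 0.072, adjusted p = 0.006557), each in 4 of 4 mice. The gene that rose was Ptbp3, by 0.49 (adjusted p = 0.03283) in 3 of 4 mice, named after its value was seen.

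SR-related proteins held 11 lower and 0 higher of 21 in limma, where 7.12% and 4.09% of all probes were called. Of all probes with A of at least 9, the shares were 23.9% and 13.6%. Son, a large speckle protein, fell by 0.46 (SE 0.11, limma adjusted p = 0.01427) in 4 of 4 mice, and its other 2 probes differed by -0.33 and -0.02. Luc7l3 fell by 0.37 (SE 0.075, adjusted p = 0.005651) and Srrm2, another speckle scaffold, by 0.30 (SE 0.083, adjusted p = 0.02751). Rnps1, of the exon junction complex, fell by 0.40 (SE 0.094, adjusted p = 0.01168), in 3 of 4 mice, and its other probe differed by 0.00. The call of Srrm2 was lost without mouse 305, 310 or 315 on day 0 or mouse 305, 315 or 320 on day 10, with an adjusted p of up to 0.1127. Without mouse 305 on day 0 the calls of Son and Rnps1 were lost too, at 0.05464 and 0.05649.

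Core spliceosome genes held 14 lower and 0 higher of 45, beside 7.12% and 4.09% of all probes. Of all probes with A of at least 9, the shares were 23.9% and 13.6%. Snrpd3, an Sm protein, fell by 0.58 (SE 0.10, limma adjusted p = 0.002662) in 4 of 4 mice, and its other probe differed by -0.23. Cdc5l, of the Prp19 complex, fell by 0.34 (adjusted p = 0.008579) and Snrpg by 0.38 (adjusted p = 0.04024), Snrpg in 3 of 4 mice. Snrnp200, a U5 helicase, fell by 0.28 (limma adjusted p = 0.01982), and its other probe differed by -0.02. In Cy5 alone Snrnp200 was higher by 0.19, an alternative in which that difference missed the threshold. Snrpg was past the threshold in 14 of the 20 fits that left out 1 array and lost its call without the same arrays as Srrm2, with an adjusted p of up to 0.1271. Snrnp200 lost its call without mouse 305 or 315 on day 0 or mouse 315 on day 10, at up to 0.08622.

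The SR proteins outside the 10 genes held 1 lower, Srsf1, of 9 (a difference of -0.35, limma adjusted p = 0.04047, its other probe at -0.07). In this comparison 7.12% of all probes were called lower and 4.09% higher, which also stands beside the counts below. Tra2a differed by -0.26 (limma adjusted p = 0.09601), its other probe by -0.15. Among the other SR protein kinases 1 of 6 was higher and 0 lower: Dyrk1b rose by 0.56 (SE 0.091, adjusted p = 0.001789), higher in 4 of 4 mice, with its other probe at -0.01, and with array medians in place of loess it was lower by 0.62. Nuclear cyclophilins held 1 lower of 9, and Ppih, of the U4/U6 complex, differed by -0.18 (adjusted p = 0.05172), its other probe by 0.20. Genes of nonsense-mediated decay, which removes the unproductive transcripts of SR protein genes, held 1 lower of 9. Smg1, the kinase of UPF1, fell by 0.36 (limma adjusted p = 0.005143), and its other probes differed by -0.38 and -0.08. Upf3b differed by 0.47 (limma adjusted p = 0.06803), its other 3 probes by -0.15, 0.22 and 0.48.

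**Figure D4:**
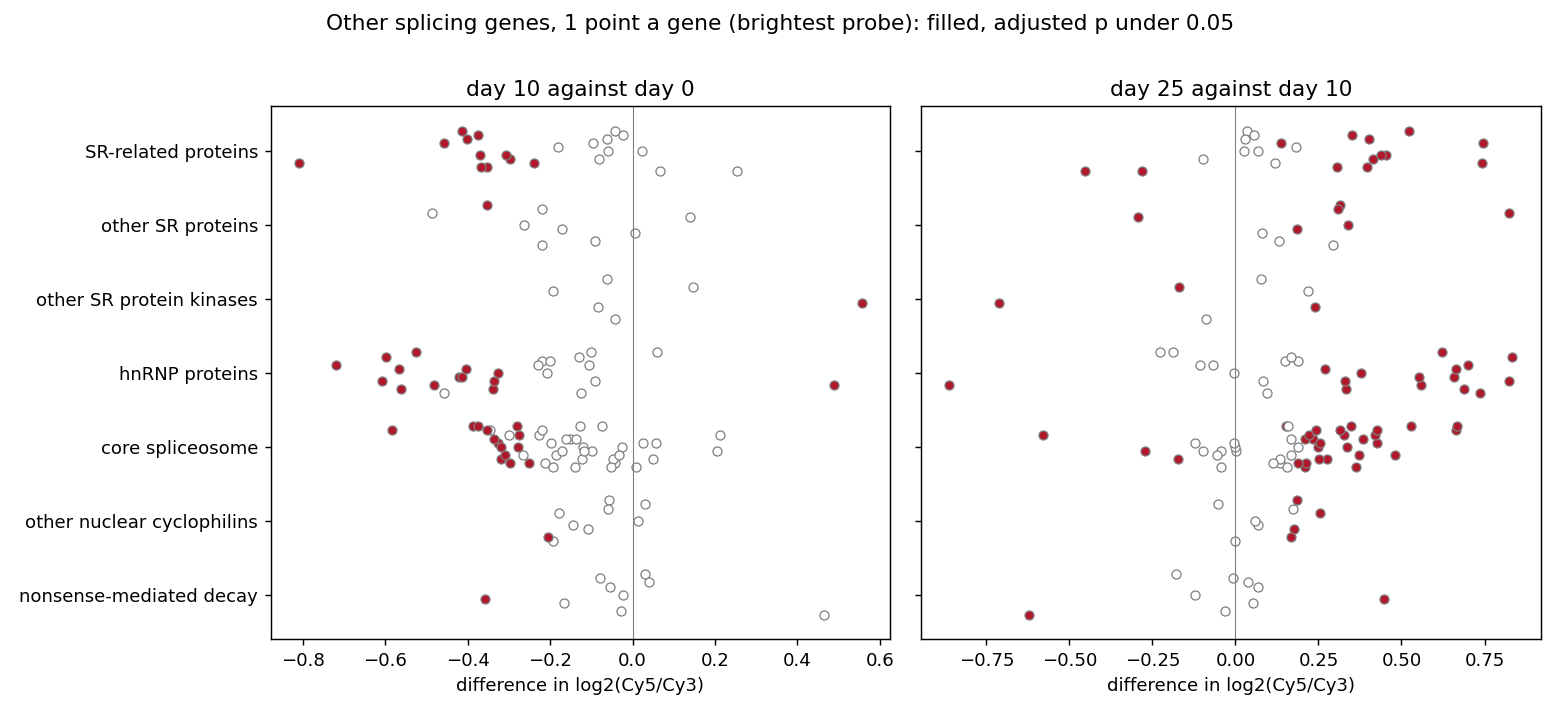
Difference in log2(Cy5/Cy3) of 124 other splicing genes, 1 point a gene, by list (rows), for day 10 against day 0 (left) and day 25 against day 10 (right). Filled points have a limma adjusted p under 0.05. On the left 41 filled points lie below 0 and 2 above, on the right 62 lie above 0 and 10 below.

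With loess normalization, days 15, 20 and 25 gave fewer calls against day 0 than day 10 did. The order of days 10 and 15 depends on the processing: the counts were 50 on day 15 and 24 on day 10 with scaling between arrays, and 55 and 41 with the scanner's ratio. Of the 124 genes, in the loess ratios, 17 were lower and 2 higher on day 15, beside 3.85% and 2.03% of all probes, and 9 of the lower ones were hnRNP genes. Of the 70 with A of at least 9, 22.9% were lower and 2.86% higher on day 15, beside 17.1% and 9.69% of all probes as bright. Hnrnpa1 fell by 0.77 (SE 0.096, limma adjusted p = 0.0003789) and Hnrnpd by 0.56 (SE 0.072, adjusted p = 0.0003789). Son fell by 0.45 (adjusted p = 0.02004) and Cdc5l by 0.29 (adjusted p = 0.02687), and Dyrk1b rose by 0.37 (adjusted p = 0.02077). These 3 calls were lost in some of the 20 fits that left out 1 array: Son was past the threshold in 16 (lost without mouse 305 or 310 on day 0, or 315 or 320 on day 15), Cdc5l in 15 (305 or 315 on day 0, or 310, 315 or 320 on day 15) and Dyrk1b in 17 (310 on day 0, or 310 or 320 on day 15). Other probes differed on day 15 by -0.27 and -0.04 for Hnrnpa1, by -0.18 and 0.01 for Son and by 0.07 for Dyrk1b. On day 20, 4 were lower and 0 higher, beside 2% and 0.942% of all probes: Rnps1, Hnrnph2, Prpf38a and Ddx46. Of the 70 bright genes, 2.86% were lower and 0% higher on day 20, beside 6.73% and 3.08% of all probes as bright. The call of Rnps1 was lost without mouse 305 on day 0 or mouse 315 on day 20, and its other probe differed by -0.015. With the mouse as a block 7 were called on day 20, 5 lower and 2 higher, beside 3.28% and 4% of all probes in that fit. On day 25, 0 were called by limma, beside 0.148% of all probes. Without adjustment 21 had a limma p under 0.05, but the share of all probes at that looser limit was not taken, so nothing is read from this count.

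Between day 25 and day 10, 62 of the 124 genes were higher and 10 lower, beside 17.7% and 13.8% of all probes. The median difference was 0.18, beside 0.03 for all probes. Of the 70 with A of at least 9, 67.1% were higher and 7.14% lower, beside 37.6% and 26.2% of all probes as bright. Hnrnpa1 rose by 0.82 (SE 0.096, limma adjusted p = 4.811e-05), Son by 0.75 (SE 0.11, adjusted p = 0.0001932) and Snrpg by 0.67 (SE 0.11, adjusted p = 0.000449), each in 4 of 4 mice. The other probes of Hnrnpa1 differed by 0.07 and 0.41, and those of Son by 0.03 and 0.54. Tra2a rose by 0.34 (limma adjusted p = 0.01566, but 0.05072 without mouse 315 on day 10) and the brightest Ppih probe by 0.26 (limma adjusted p = 0.002913). The other Tra2a probe differed by 0.06 and the other Ppih probe by -0.22, in the opposite direction. Dyrk1b fell by 0.71 (SE 0.091, adjusted p = 7.76e-05) and Upf3b by 0.62 (SE 0.16, adjusted p = 0.007444), each in 4 of 4 mice, and with array medians in place of loess both were above 0, at 0.41 and 0.40, where the median of all probes was 0.39. Other probes differed by -0.07 for Dyrk1b and by -0.56, -0.18 and 0.09 for Upf3b. Day 10 against day 0 and day 25 against day 10 share the day 10 arrays, so the calls of one are not independent of those of the other.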

How the data were processed

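RNA of whole blood was amplified, labelled and hybridised to 20 arrays with 2 colours of 45018 spots each, per the labels' protocols. The deposited intensities hold each spot's mean signal and local background in both channels, and per the file headers were read by version 9.1.3.1 of Agilent Feature Extraction. The deposited log10 ratio of Cy5 over Cy3, per the file headers, is that software's own; the deposited series table equals it for 900360 of 900360 values within 1e-06, with column medians of 0, and both served as an alternative. Columns of samples outside the series numbered 0.

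Intensities were corrected with normexp (offset 50) and each array by loess, with 1486 positive and 153 negative control spots at weight 0 and no scaling between arrays. Spots of a probe were averaged, without those marked non-uniform. A probe was kept if well above background in Cy5 on at least 4 arrays and measured on at least 3 arrays a day: 20903 of 41174. The fit used limma 3.58.1 in R 4.3.3 with day means and Benjamini-Hochberg adjustment at 0.05, and was tested on simulated data. Of the probes, 23374 were named by accession, 6733 by symbol and 2919 by synonym through RefSeq, and 8148 keep the file's name. Differences are on the log2 scale, the later day minus the earlier. The number of arrays limits the precision.

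Mouse numbers pair the arrays because the same animals were bled each day; the mean correlation of deviations from the day means was 0.0846 over 40 pairs of one mouse and -0.0287 over 120 pairs of different mice. The mouse as a block was an alternative, as were other scalings, filters and background settings. The members and lists were chosen with earlier results of these data known, though the splicing lists were written without their values at hand. The 10 members are named with every probe. From each splicing list, up to 4 genes with the smallest adjusted p in the F test over the 4 comparisons with day 0 are named, among those past 0.05; Srsf1, Ptbp3, Hnrnph2, Prpf38a and Ddx46 fall outside it. For likeness, the 3 genes of highest r were named, except 1 for Srsf7 that is not reported here. Each mouse is a separate animal, so replicates are biological.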

Additional observations from a re-analysis of the deposited data

Results flagged for a closer look

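Of the 115 sets of 4 arrays that make up a probe's values on a day, 13 held an array set apart from the other 3 by more than Dixon's critical value. Chance gives about 1 in 20. The highest was the brightest Ppig probe in mouse 310 on day 25, at 2.01, with the next value at 0.18. The fourth Clk4 probe gave 1.68 in mouse 320 on day 10, with the next at 0.01, a net Cy5 intensity of 265 and a net Cy3 intensity of 13.5. The second Ppig probe gave -0.13 in mouse 310 on day 15.

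Mouse 310 on day 15 also stood apart for Srsf5, at 0.28, for the second Clk3 probe, at 0.063, and for the second Srpk1 probe, at 0.053. Mouse 320 on day 15 did so for the brightest Srsf2 probe, at -0.35, for the next Srsf2 probe, at -0.11, and for the brightest Clk2 probe, at 0.14. On day 20 the second Srsf2 probe gave -0.049 in mouse 320, where the nearest mouse was at -0.32. The second Clk3 probe gave 0.23 in mouse 315 on day 20, the brightest Srsf7 probe -0.08 in mouse 305 on day 20, where the nearest mouse was at -0.46, and the brightest Clk2 probe -0.24 in mouse 320 on day 0.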

How the results depend on the processing

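Counts are out of the 10 genes, then of the 124 other splicing genes. For day 10 against day 0 the main counts of 4 and 43 became 7 and 110 with array medians in place of loess, 7 and 65 without background correction, and 1 and 24 with scaling between arrays. For day 15 against day 0 the main 1 and 19 became 0 and 0 with medians, 6 and 50 without background correction, 4 and 55 with the scanner's ratio, 4 and 50 with scaling, and 3 and 49 in Cy5 alone. The 10 genes gave 2 with probes above background on all arrays, 2 with the brightest probe of each gene and 3 with the mouse as a replicate block, and the other genes 9 with an offset of 1. For day 20 against day 0 the main 1 and 4 became 0 and 0 with medians, 2 and 10 without background correction and 0 and 2 with scaling. The 10 genes gave 0 without a brightness filter and 0 with an offset of 1, and the other genes 8 with the scanner's ratio, 39 in Cy5 alone and 7 with the mouse as a block. For day 25 against day 0 the other genes, at 0, gave 5, 2, 2 and 17 without background correction, with the scanner's ratio, with scaling and in Cy5 alone. For day 25 against day 10 the main 4 and 72 became 1 and 29 with scaling, and the 10 genes gave 9 with medians. The shares of all probes called moved as well. With medians they were 44.1% on day 10, nearly all lower, 0.0144% on day 15, 0.0144% on day 20 and 50% for day 25 against day 10. Without background correction they were 39.5%, 39.6%, 17.8% and 14% on days 10, 15, 20 and 25 against day 0, with scaling 18%, 29%, 3.96% and 2.68%, and then 22% for day 25 against day 10. The scanner's ratio gave 43.8%, 11.8% and 3.86% on days 15, 20 and 25, and Cy5 alone 27.9%, 22.5% and 9.82%. On day 15 probes above background on all arrays gave 11%, the brightest probes 7.74%, the mouse as a block 6.92% and an offset of 1 3.99%. On day 20 no brightness filter gave 0.928%, an offset of 1 2.2% and the block 7.28%. The replicate block moved no other count of these genes by over 1.5 times. The offset of 1 and the comparisons among days 10 to 25 other than that of day 25 with day 10 were added after seeing the data.

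Leaving out 1 array gave 3 to 5 and 15 to 57 for day 10, 0 to 3 and 7 to 25 for day 15, 0 to 3 and 1 to 18 for day 20 and 0 to 0 and 0 to 10 for day 25, all against day 0, and 4 to 5 and 48 to 73 for day 25 against day 10. The day 10 differences that chose Clk1, Clk4 and Srsf7 are a description only: over the 10 alternatives they ranged over -1.98 to -0.46, -2.04 to -0.38 and -2.06 to -0.53. Signs turned for Dyrk1b with medians, at -0.62 on day 10, -0.69 on day 15 and 0.41 between days 25 and 10, where the medians of all probes were -0.40, -0.29 and 0.39, and for Upf3b in that last comparison, at 0.40. In Cy5 alone they turned for Srsf2, at 0.081 on day 10 and 0.0063 on day 20, and Snrnp200, at 0.19 on day 10. The cause was not tested.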
